A study of Mus musculus with 6 samples.

Results

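The circadian clock genes of the pressure-loaded mouse heart were followed here through 10 genes, Arntl, Clock, Per1, Per2, Per3, Cry1, Cry2, Nr1d1, Nr1d2 and Dbp. They are represented by 23 probe sets that the array annotation assigns to a single symbol, out of 38195 probe sets and 18029 genes measured. Hearts came from 3 Tmbim1 KO mice and 3 wild type mice that the labels call Flox, all on a C57BL/6 background and, per the series' design text, 8 weeks old. Every mouse had undergone aortic banding (spelled binding in the labels) for 2 weeks, so the controls carry the surgery too, and each heart was read on 1 Affymetrix array. The mice were kept on a cycle of 12 h light and 12 h dark. The hour at which each heart was taken, the sex of the mice and the way the deletion was made are not given in the sources used here. The question asked of these genes was whether the hearts of the 2 genotypes differ in the state of the clock, which depends on the hour of collection.

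The mammalian clock is a feedback loop of transcription. ARNTL (BMAL1) and CLOCK pair on E-box sequences and switch on the Per and Cry genes, whose proteins return to the nucleus and block that pair. The nuclear receptors REV-ERB alpha and beta, products of Nr1d1 and Nr1d2, repress Arntl and close a second loop, while DBP acts on D-box sequences and carries the rhythm to output genes. In the heart, Arntl transcript peaks roughly opposite in the day to Dbp, Nr1d1 and the Per genes, so hearts taken at different hours are known to differ in these genes in opposite directions.

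Promoter sequences show which of these elements lie next to the start sites of the genes described below. RefSeq windows on the GRCm38.p6 assembly, 250 bases before to 50 after a start, matched 9 of the 10 members in 13 windows; Per2 was not matched. Motifs of clock and signal control and a heat shock motif were searched on both strands, and no matches overlapped. The E-box CACGTG was found in 2 of the 13 windows, of Per1 and Cry1, and in 7.15% of 32851 windows of all genes. The D-box TTATGNAA was found in 2 of the 13, of Per1 and Per3, against 3.38% of all windows. The core of the ROR and REV-ERB element, AGGTCA, was found in 4 of the 13, of Arntl, Clock, Per1 and Nr1d2, against 16.3% of all windows. The cAMP response element TGACGTCA (1.79% of all windows) and the heat shock motif TTCNNGAA (8.52%) were found in 0 of the 13. A match is a description of the letters and not of a bound site. The 250 bases before a start of Per1, Cry1 and Per3 are shown because these windows hold the E-box and D-box matches, which are in capitals together with the ROR and REV-ERB core of Per1 (read on the other strand). They lie on the plus strand at chr11:69098699-69098948 for Per1, and on the minus strand at chr10:85185055-85185304 for Cry1 and chr4:151044666-151044915 for Per3.
Per1: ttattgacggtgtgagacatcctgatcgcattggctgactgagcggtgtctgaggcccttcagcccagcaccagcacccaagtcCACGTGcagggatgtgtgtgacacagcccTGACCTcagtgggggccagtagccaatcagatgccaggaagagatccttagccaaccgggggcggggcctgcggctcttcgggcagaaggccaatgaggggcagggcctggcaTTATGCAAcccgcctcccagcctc
Cry1: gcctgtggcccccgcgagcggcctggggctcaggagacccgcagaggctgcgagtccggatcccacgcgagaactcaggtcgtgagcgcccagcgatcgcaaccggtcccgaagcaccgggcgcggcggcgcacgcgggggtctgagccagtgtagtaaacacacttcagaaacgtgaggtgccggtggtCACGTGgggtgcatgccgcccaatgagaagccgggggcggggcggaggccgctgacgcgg
Per3: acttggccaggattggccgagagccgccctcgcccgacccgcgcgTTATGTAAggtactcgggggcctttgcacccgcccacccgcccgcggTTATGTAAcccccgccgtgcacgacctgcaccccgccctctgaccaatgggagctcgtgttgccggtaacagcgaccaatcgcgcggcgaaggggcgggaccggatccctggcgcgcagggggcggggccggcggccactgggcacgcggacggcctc

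Before the results, 3 facts bear on the samples. Tmbim1 was lower in every KO heart (-0.91, SE 0.10, limma adjusted p = 0.00579). KO replicate 1 stood apart in atrial genes, with Myl7 at 12.86 there and at 3.45 to 3.90 in the other 5 hearts, and the atrial list averaged 9.07 there against 5.32 to 5.56. Wild type replicate 3 lay at -37.0 on the first principal component, where the other wild type hearts lay at -8.48 and -9.65 and the KO hearts at 11.0 to 23.4.

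Over all 10 genes, 0 of 23 probe sets passed the threshold by limma (adjusted p under 0.05, Benjamini-Hochberg over all probe sets), where 0.422% of all probe sets did. Without adjustment, 4 of the 23 had a limma p under 0.05, against 10.6% of all probe sets. The 3 KO arrays lay wholly above or wholly below the 3 wild type arrays in the same number, 4 of the 23, against 15.2% of all. These 4 were the probe set of Per1 and a dim one of Per2, both higher in KO hearts, and that of Cry2 and a dim one of Clock, both lower. The median difference over the 23, KO minus wild type on the log2 scale, was -0.01, where it was -0.0022 over all probe sets. Every difference below is on that scale, and the value after ± is the SD among n = 3 mice. The main probe set of a gene is the one with the highest mean signal.

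**Figure D1:**
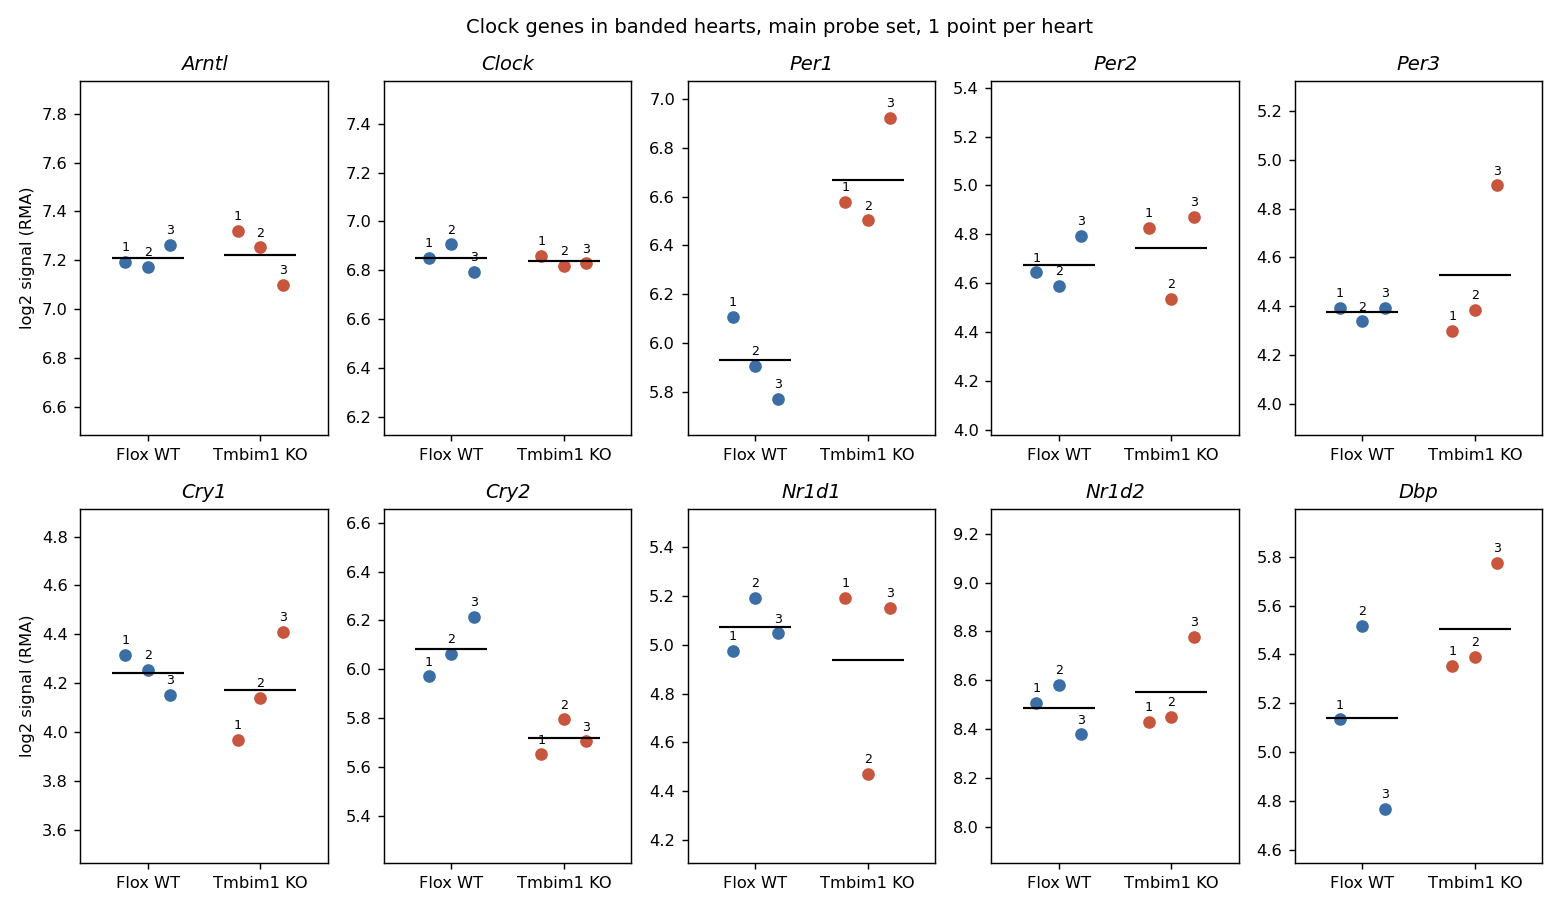
Log2 signal of the main probe set of each of the 10 clock genes in every heart, with Flox wild type in blue, Tmbim1 KO in red, the replicate number above each point and a line at the group mean; every panel spans the same number of log2 units. Per1 and Cry2 are the genes whose groups do not overlap, Arntl and Clock stay nearly level, and KO replicate 3 is the highest heart in 6 of the 10 genes.

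At its main probe sets the positive arm of the loop was nearly level across the 6 hearts. Arntl, which encodes BMAL1, read 7.19, 7.17 and 7.26 in wild type replicates 1, 2 and 3 and 7.32, 7.25 and 7.10 in KO replicates 1, 2 and 3. The KO values spanned the wild type ones, with KO replicate 3 the lowest of all 6 hearts and KO replicate 1 the highest. The means were 7.21 ± 0.05 and 7.22 ± 0.11 (SD, n = 3), a difference of 0.01 with a 95% interval from -0.21 to 0.23 (limma adjusted p = 0.982). A dimmer probe set of Arntl stood at -0.17 (adjusted p = 0.718). It read 4.46, 4.52 and 4.76 in wild type and 4.60, 4.35 and 4.31 in KO hearts. Wild type replicate 3 was its highest heart and KO replicate 3 its lowest.

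Clock, the partner of BMAL1, read 6.85, 6.91 and 6.79 in wild type and 6.86, 6.82 and 6.83 in KO hearts. Its range over all 6 hearts was 0.11, and its SD was lower than that of all but 0.88% of the genes measured. The difference was -0.01, with a 95% interval from -0.22 to 0.19 (adjusted p = 0.980). Of its 3 other probe sets, those at 0.04 and -0.12 overlapped between the groups. The one at 0.04 read 6.02, 5.99 and 6.24 in wild type and 6.29, 6.20 and 5.87 in KO hearts. The one at -0.12 read 6.34, 6.38 and 6.15 in wild type and 6.19, 6.23 and 6.10 in KO hearts. The dimmest one was lower in every KO heart, at 3.23, 3.20 and 3.08 in wild type and 2.87, 2.90 and 2.85 in KO hearts, a difference of -0.30 (SE 0.09, adjusted p = 0.250). Its signal lay at percentile 30.0 of all probe sets, and the 3 brighter ones of the gene stood between -0.12 and 0.04.

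Among the period repressors, the groups separated at Per1 and overlapped at the main probe sets of Per2 and Per3. Per1, which cAMP and glucocorticoids are also known to induce within a short time, read 6.11, 5.91 and 5.77 in wild type replicates 1, 2 and 3. It read 6.58, 6.50 and 6.92 in the KO hearts, so the lowest KO heart lay above the highest wild type heart. The means were 5.93 ± 0.17 and 6.67 ± 0.22 (SD, n = 3), a difference of 0.74 (SE 0.13, 95% interval 0.44 to 1.04), or 1.67-fold, with an unadjusted limma p of 0.000277. It missed the threshold over all probe sets (adjusted p = 0.0605). It passed in 2 of 15 alternatives, a robust variance prior (adjusted p = 0.0442) and a second quantile normalization (adjusted p = 0.0458), and its adjusted p ran from 0.0442 to 0.346 over all 15. With any single array left out the difference stayed between 0.61 and 0.83. The gene has 1 probe set, so no second reading of it was at hand.

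Per2, which lies on chromosome 1 with Tmbim1, 144 measured genes away from it, read 4.64, 4.59 and 4.79 in wild type and 4.83, 4.53 and 4.87 in KO hearts. The groups overlapped, and the difference was 0.07 (95% interval -0.19 to 0.33, adjusted p = 0.904). Its dimmest probe set, at percentile 21.7 of all signals, was higher in every KO heart, at 2.30, 2.53 and 2.40 against 2.67, 2.67 and 2.93. That difference was 0.35 (SE 0.11, adjusted p = 0.276), while the third probe set of the gene stood at -0.04. The probe sets of Per2 therefore did not give 1 direction.

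Per3 was level in 5 of the 6 hearts. Its main probe set read 4.39, 4.34 and 4.39 in wild type and 4.30, 4.38 and 4.90 in KO hearts, the last being KO replicate 3. The difference of 0.15 (95% interval -0.18 to 0.48, adjusted p = 0.813) rested on that heart and was -0.03 without it. The 5 other probe sets of Per3, all dimmer, lay between -0.13 and 0.11, and each overlapped between the groups. Its promoter carries the D-box matches printed above. Whether such matches go with the size of a difference was not tested.

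**Figure D2:**
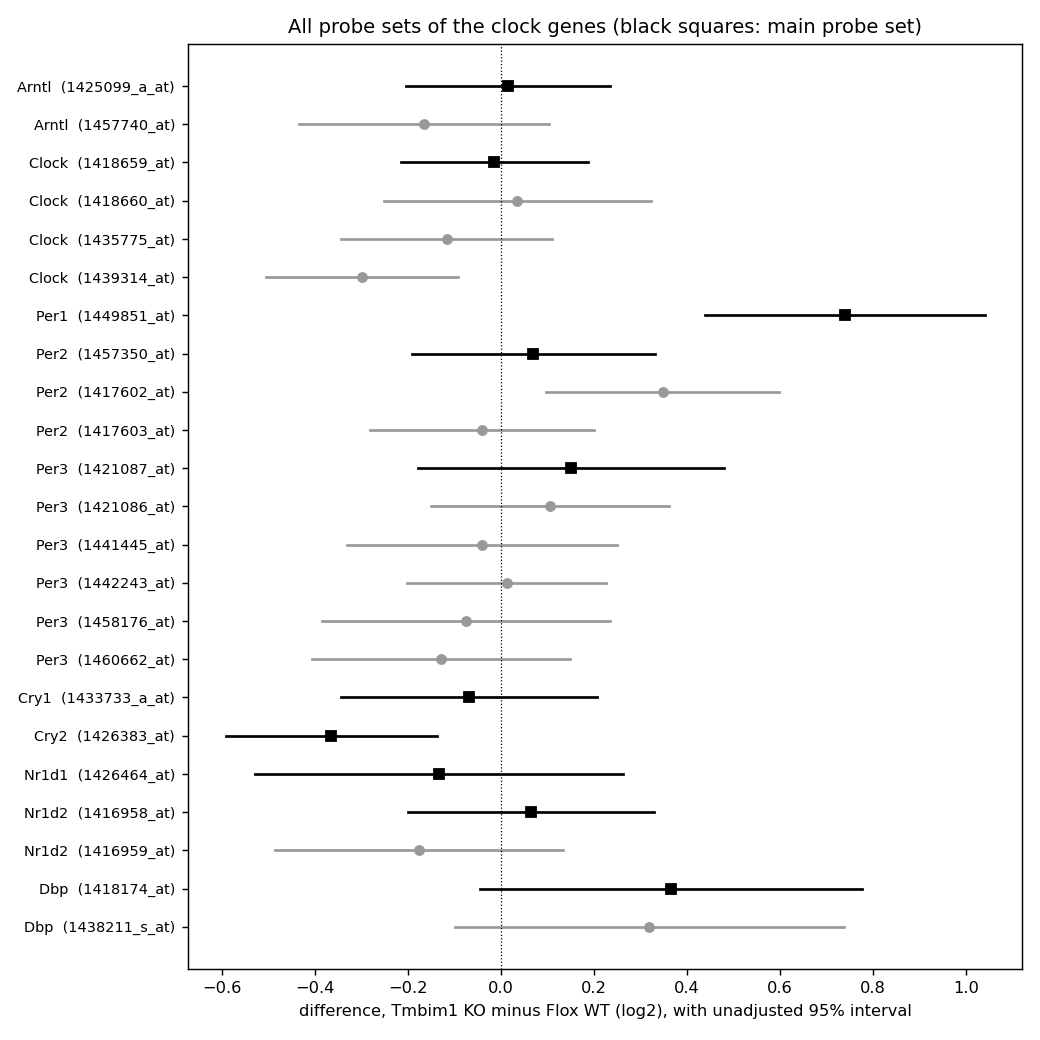
Difference between Tmbim1 KO and Flox wild type hearts on the log2 scale for all 23 probe sets of the clock genes, with unadjusted 95% intervals from limma; black squares are the main probe set of each gene and grey circles the dimmer ones. The interval of Per1, from 0.44 to 1.04, lies farthest from 0, and 16 of the 23 intervals lie within 0.5 of 0 on both sides.

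The cryptochromes, which repress BMAL1 and CLOCK together with the PER proteins, separated the groups at Cry2 and not at Cry1. Cry2, like Per1, has no second probe set. It read 5.97, 6.06 and 6.21 in wild type and 5.65, 5.79 and 5.70 in KO hearts, without overlap. Its means were 6.08 ± 0.12 and 5.72 ± 0.07 (SD, n = 3), a difference of -0.37 (SE 0.10, 95% interval -0.59 to -0.14), which did not pass (adjusted p = 0.200). The difference was between -0.42 and -0.30 with any single array left out. Cry1, whose promoter holds an E-box match, read 4.32, 4.25 and 4.15 in wild type and 3.97, 4.14 and 4.41 in KO hearts. KO replicate 1 was its lowest heart and KO replicate 3 its highest, and the difference was -0.07 (95% interval -0.34 to 0.21, adjusted p = 0.913).

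The REV-ERB genes and Dbp, whose transcripts swing widely over the day, varied more within the groups than between them. Nr1d1 read 4.97, 5.19 and 5.05 in wild type and 5.19, 4.47 and 5.15 in KO hearts. Of the 6 hearts, KO replicate 2 was low and the other 5 lay within a narrow band. The difference was -0.13 (95% interval -0.53 to 0.26, adjusted p = 0.875) and turned to 0.10 without KO replicate 2. Nr1d2 read 8.51, 8.58 and 8.38 in wild type and 8.43, 8.45 and 8.78 in KO hearts, with KO replicate 3 the highest. The difference was 0.06 (95% interval -0.20 to 0.33, adjusted p = 0.915), and a dim second probe set was at -0.18.

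Dbp, the output factor, read 5.13, 5.52 and 4.77 in wild type and 5.35, 5.39 and 5.77 in KO hearts. Wild type replicate 3 was low and KO replicate 3 high, and wild type replicate 2 lay above both other KO hearts. The means were 5.14 ± 0.37 and 5.50 ± 0.23 (SD, n = 3), a difference of 0.37 (95% interval -0.05 to 0.78, adjusted p = 0.541). The second probe set of Dbp gave the same order at both ends, 4.45 in wild type replicate 3 and 5.46 in KO replicate 3, and a difference of 0.32 (adjusted p = 0.626). With 1 array left out, the difference at the main probe set was lowest at 0.18 when the low wild type replicate 3 was omitted. It was highest at 0.55 when wild type replicate 2 was omitted, and was 0.23 without KO replicate 3. The adjusted p stayed between 0.235 and 0.839.

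**Figure D3:**
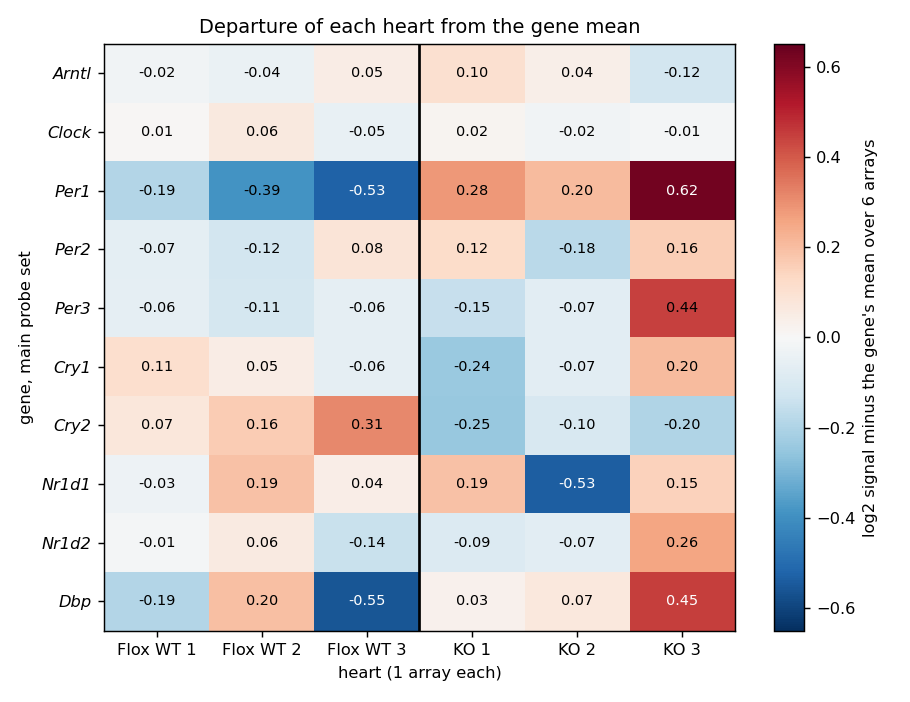
Log2 signal of each heart minus the mean of that gene over the 6 hearts, for the main probe sets of the 10 clock genes, with red above and blue below the mean. KO replicate 3 is above the mean in Per1, Per2, Per3, Cry1, Nr1d1, Nr1d2 and Dbp and below it in Arntl, Clock and Cry2. Wild type replicate 3 is lowest in Clock, Per1, Nr1d2 and Dbp and highest in Cry2.

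Read heart by heart rather than by genotype, KO replicate 3 carried the highest value of 6 of the 10 genes, Per1, Per2, Per3, Cry1, Nr1d2 and Dbp, and the lowest value of Arntl. Over all 18029 genes that heart was the highest in 13.6%. Its departures from the gene mean were 0.62 for Per1, 0.45 for Dbp, 0.44 for Per3, 0.26 for Nr1d2 and 0.20 for Cry1. They were 0.16 for Per2, 0.15 for Nr1d1, -0.01 for Clock, -0.12 for Arntl and -0.20 for Cry2. Wild type replicate 3 had the lowest value of 4 of the 10 genes, Clock, Per1, Nr1d2 and Dbp, against 21.2% of all genes. Its departures were -0.55 for Dbp, -0.53 for Per1, -0.14 for Nr1d2, -0.06 for Per3 and Cry1 and -0.05 for Clock. They were 0.31 for Cry2, the highest of the 6 hearts, 0.08 for Per2, 0.05 for Arntl and 0.04 for Nr1d1. These spreads within a genotype were as wide as the differences between genotypes at the main probe set of every member except Per1 and Cry2, whose groups did not overlap. Since the hearts carry no hour of collection, a difference in hour and a difference in genotype cannot be told apart heart by heart.

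The other genes of the clock were counted by main probe set in 2 lists, partners and modifiers of the core loop and output genes known to follow the clock. Both lists were chosen with earlier results of these data known, so their counts against all genes are a description. Of 39 measured genes, 1 fell and 0 rose, where 0.549% of all genes passed in either direction. Without adjustment, 14 of the 39 had a limma p under 0.05, 4 higher and 10 lower, against 11.5% of all genes, and the groups did not overlap in 16, against 16.7% of all.

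Among 22 partners and modifiers, 0 passed by limma, 4 had an unadjusted p under 0.05, and the median difference was 0.01. Bhlhe40, encoding the E-box repressor DEC1, was the nearest to the threshold. It read 7.32, 7.10 and 7.02 in wild type and 7.92, 7.67 and 7.78 in KO hearts, a difference of 0.64 (SE 0.11, adjusted p = 0.0520). Its adjusted p was between 0.0412 and 0.422 over 15 alternatives, and it passed in 4 of them. Nfil3, a repressor at the D-box sites that DBP activates, stood at 0.49 (adjusted p = 0.0906), with every KO heart above every wild type heart. Npas2, which can stand in for CLOCK as the partner of BMAL1, stood at -0.46 (adjusted p = 0.192), at 4.41, 4.77 and 4.55 against 4.31, 3.99 and 4.03. Prkaa2, a subunit of the kinase AMPK that marks CRY proteins for breakdown, was at -0.26 (adjusted p = 0.391).

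Among 17 output genes, Kcnip2 fell. It encodes a protein that the cardiac transient outward potassium channel needs, and the clock is known to control it in the heart. It read 8.36, 8.17 and 8.23 in wild type and 7.60, 7.49 and 7.75 in KO hearts, a difference of -0.64 (SE 0.11, adjusted p = 0.0408). It lost the call with any single array left out (adjusted p = 0.0766 to 0.182) and with a replicate block (adjusted p = 0.0567). Its dimmer probe sets did not pass and did not give 1 direction, at -0.71 (adjusted p = 0.298) and 0.11 (adjusted p = 0.825). Dgat2, which makes triglyceride, stood at -0.72 (adjusted p = 0.107), and the glucose transporter gene Slc2a4 at -0.54 (adjusted p = 0.0950). Cdkn1a, the cell cycle inhibitor p21, stood at 0.51 at its main probe set (adjusted p = 0.0950), and its other probe set passed at 0.66 (adjusted p = 0.0481). Without adjustment, 10 of the 17 had a limma p under 0.05, against 11.5% of all genes. Every KO heart lay below every wild type heart in 8 of the 17 and above in 2 of the 17, against 16.7% of all genes in either direction. These were not all the same genes as those with a p under 0.05. The median of the list was -0.20, and 10 of its 17 genes were negative, against 9122 of 18029 genes.

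**Figure D4:**
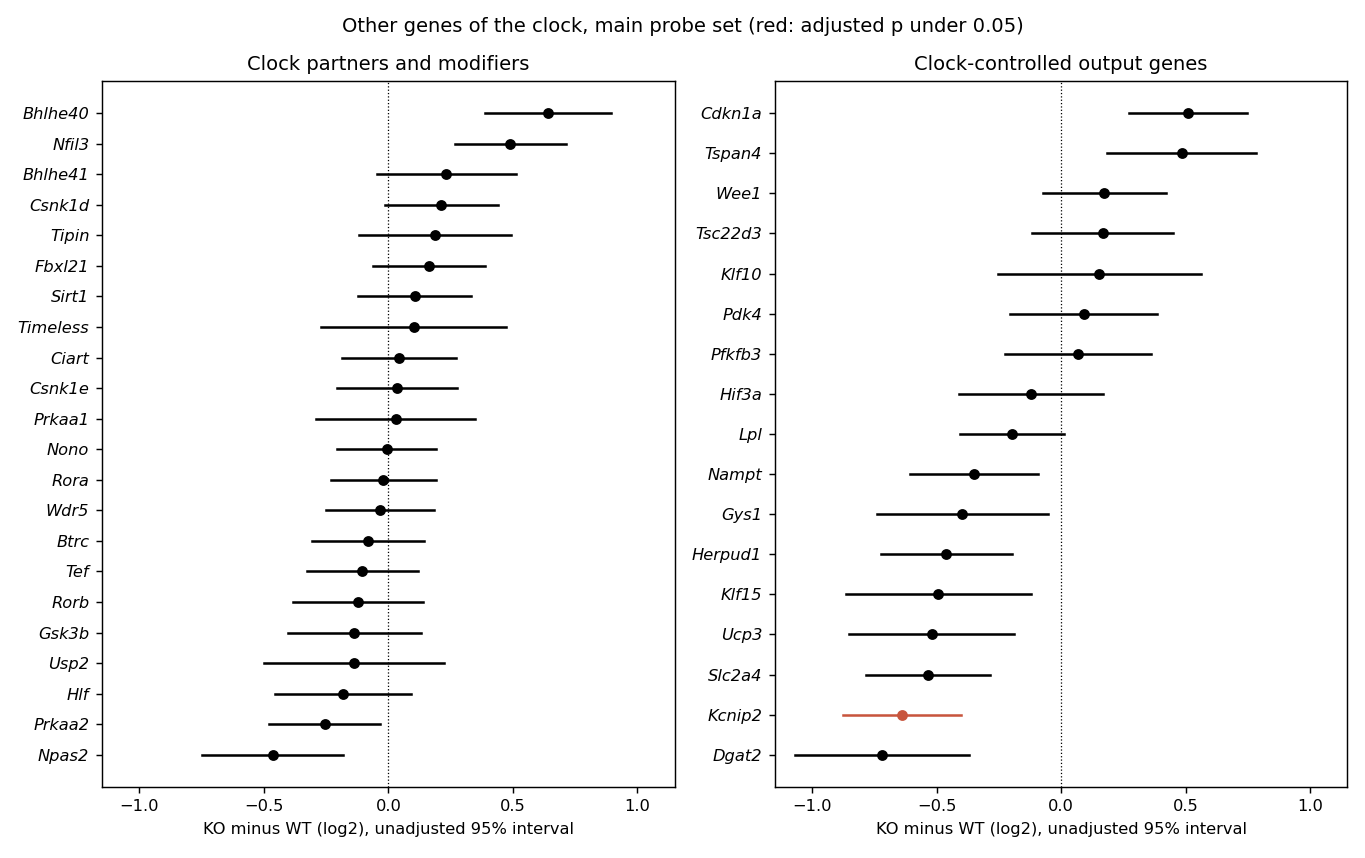
Difference between Tmbim1 KO and Flox wild type hearts on the log2 scale, with unadjusted 95% intervals, for 22 partners and modifiers of the core clock (left) and 17 clock-controlled output genes (right), by main probe set and in order of size. Kcnip2 at -0.64 is the gene in red, past the threshold, and Bhlhe40 at 0.64 heads the left panel.

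Genes that respond to other inputs were counted in the same way, since Per1 is also known to answer some of them. These lists too were chosen with earlier results of these data known, so their counts against all genes are a description. Of 21 immediate early genes, 6 rose, where 0.322% of all genes did. In that list 21 of 21 had a positive difference, with a median of 0.72, against 8907 of 18029 genes and a median of -0.0020. The number that rose was 2 without KO replicate 2 or wild type replicate 2, 3 without KO replicate 1 or KO replicate 3, and 4 without either other array. Those with the smallest p were Ier3 (1.23, adjusted p = 0.00124), Atf3 (1.66, adjusted p = 0.00485), Btg2 (1.10, adjusted p = 0.0179) and Fosl2 (0.97, adjusted p = 0.0273). Of 15 glucocorticoid response genes, 2 rose, the metallothionein gene Mt2 (0.94, adjusted p = 0.00579) and the EGF receptor inhibitor Errfi1 (1.12, adjusted p = 0.0102). Their number was 1 without KO replicate 1 or KO replicate 2. Of the 15, 13 were positive with a median of 0.35, and Klf15 stood at -0.49 (adjusted p = 0.301) with every KO heart below every wild type heart. The list shares Tsc22d3, Klf15, Pdk4 and Cdkn1a with the output genes. Of 10 heat shock genes measured, 2 rose, Hspa1b (2.33) and Hspa1a (2.20), a pair of near-identical genes whose probes may read both, and the median was 0.30. Without KO replicate 1 or any 1 wild type heart 1 of the 10 rose. Of the genes that respond to cold, Cirbp was at -0.17 and Srsf5 at -0.03. Averaged over the list, immediate early genes read 5.76 to 6.12 in wild type and 6.59 to 6.92 in KO hearts, and heat shock genes 8.99 to 9.11 and 9.55 to 9.82. In KO replicates 1, 2 and 3 the glucocorticoid list averaged 8.41, 8.20 and 8.49. The heat shock list averaged 9.63, 9.55 and 9.82 there, and the immediate early list 6.92, 6.59 and 6.64. In wild type replicates 1, 2 and 3 the glucocorticoid list averaged 8.06, 7.83 and 7.97. The heat shock list averaged 9.11, 9.08 and 8.99 in those hearts, and the immediate early list 6.12, 5.76 and 5.92. With 3 hearts per group, the order of hearts within a group cannot tie a list to Per1. The part of these inputs in the Per1 difference was not tested.

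The 5 genes whose profile over the 6 arrays came nearest to that of Per1, the member with the widest spread, were Nuak1, Cyb561, Maff, Ell2 and Map3k6. After centring, their values differed from those of Per1 by a root mean square of 0.06, 0.09, 0.11, 0.12 and 0.13 log2 units, where Per1 itself varied by 0.40. They were picked for this likeness out of 18029 genes over 6 arrays and are named as a description.

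The 10 ventricular cardiomyocyte markers averaged 12.90 to 12.97 in wild type and 12.77 to 12.82 in KO hearts, near the top of the array scale. All 10 differences were negative, and 1 had an unadjusted limma p under 0.05. Every KO heart lay below every wild type heart in 9 of the 10, against 16.7% of all genes in either direction. In bulk tissue, fewer cells of a type and less RNA per cell cannot be told apart. List averages were 9.29 to 9.92 in wild type and 10.02 to 10.16 in KO hearts for fibroblasts, 7.14 to 7.59 and 7.52 to 7.66 for macrophages, 8.12 to 8.18 and 8.03 to 8.27 for endothelium, and 7.90 to 8.08 and 7.86 to 8.45 for smooth muscle. For adipocyte genes they were 4.54 to 4.72 and 4.58 to 4.69, and for skeletal muscle genes 4.21 to 4.30 and 4.09 to 4.49. Of 78 measured markers of these 8 cell types, Nppa (adjusted p = 0.0496) and Col3a1 (adjusted p = 0.0481) rose and 0 fell, where 0.549% of all genes passed. Nppa was counted on the atrial list, yet it read 11.85 to 12.67 in wild type hearts. Myl7 read 3.45 to 3.80 there, so Nppa signal was high in hearts where that atrial gene was low. Nppa read 13.78 in KO replicate 1, its highest heart, and 13.63 and 13.36 in KO replicates 2 and 3. Nppa passed in 6 of 15 alternatives and Col3a1 in 7 of 15; with 1 array left out Nppa passed in 1 of 6, that without wild type replicate 3, and Col3a1 in 0 of 6. Without KO replicate 1, the heart with atrial genes, Per1 stood at 0.78 (adjusted p = 0.164) and Cry2 at -0.33 (adjusted p = 0.510). When wild type replicate 3 was left out as well, Per1 stood at 0.71 (adjusted p = 0.346), and 0 of 23 member probe sets and 0 of 39 related genes passed.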

How the data were processed

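RNA from 6 hearts (400 ng each) was read on 1 Affymetrix array per mouse. The values that the authors deposited are log2 signals. Per the submitters' processing notes the tools were RMA and limma, of versions not given in the sources used here. The RMA method makes the array distributions alike, so an overall shift is removed and dim differences are compressed. Of 38208 rows, 13 controls were left out. Of the remaining 38195 probe sets, 34325 had 1 symbol, 62 several and 3808 none. KO was compared with wild type by limma 3.58.1 in R 4.3.3 (lmFit, eBayes, two-sided, Benjamini-Hochberg over all probe sets at 0.05). Precision is limited by the 3 arrays per group; an exact permutation test of 3 against 3 cannot go below p = 0.1 and was not used. The labels call the mice biological samples.

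The members and lists were chosen with earlier results of these data known. The naming rule covers all probe sets of the members, up to 4 genes of each list by unadjusted p (used for the lists of the clock and of other inputs), the 5 genes nearest in profile to the member with the widest spread, Tmbim1 and atrial markers. Some listed genes were not analysed here. The scripts' fit was tested on simulated data. Alternatives were a replicate block, trended and robust priors, array weights, another quantile normalization, median centring, a filter at the 40th percentile, 1 probe set per gene and each array left out. After seeing the data, a fit that leaves out both KO replicate 1 and wild type replicate 3 was added.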

Additional observations from a re-analysis of the deposited data

How the results depend on the processing

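The count of 0 member probe sets past the threshold became 1, Per1, with a robust prior and with a second quantile normalization, and was 0 in the other 13 alternatives. The count of 1 related gene, Kcnip2, became 2 with a trended prior, a robust prior, the filter at the 40th percentile or 1 probe set per gene, each time by adding Bhlhe40, and 0 with any single array left out or without both KO replicate 1 and wild type replicate 3. Whether replicate numbers pair the samples was not settled. The correlations of same-numbered deviations were 0.06, 0.14 and 0.02, which cannot decide it without differently numbered pairs to compare. With a replicate block 0 member probe sets passed, with Per1 at an adjusted p of 0.0928, and 1 related gene did, Dgat2 (adjusted p = 0.0333) in place of Kcnip2 (adjusted p = 0.0567), and over all probe sets 168 passed against 161. Over 325 comparisons of a member probe set with an alternative, 302 kept direction and call, 2 gained the call, 0 lost it and 21 turned sign, none of which had passed. With single arrays, or both KO replicate 1 and wild type replicate 3, left out, the turning differences ran from -0.034 to 0.077 for Arntl, -0.055 to 0.014 for the main probe set of Clock and -0.050 to 0.16 for another, -0.19 to 0.034 for Cry1, -0.27 to 0.10 for Nr1d1, -0.048 to 0.13 for Nr1d2, -0.12 to 0.043 for a dim probe set of Per2 and -0.033 to 0.27 for the main one of Per3. For dimmer ones of Per3 they ran from -0.00039 to 0.18, -0.12 to 0.069, -0.040 to 0.066 and -0.22 to 0.019. The causes were not tested. Of the 23 member probe sets, 7 lay under the 40th percentile of signal, where differences are least sure.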
